A study of Mus musculus with 8 samples.

Results

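Transcripts of 48 mouse genes of mitosis were followed in BV-2 cells, a microglial line from the mouse brain, after treatment with bacterial lipopolysaccharide (LPS), with a hexane fraction (HF) of the mushroom Amauroderma rugosum, or with both. The genes were listed by name as well-known parts of the machinery that takes a cell through mitosis, with earlier results of these data known. All 48 were matched to the array through the transcript that each probe was designed for, and all 48 were among the 22460 genes tested. Of these 22460, 13802 had a gene symbol, and the others are array identifiers without one, counted here as genes. A gene with several probes was represented by the one whose mean level was highest.

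A cell enters mitosis when cyclin B, bound to the kinase Cdk1, becomes active, with cyclin A and the Cdc25 phosphatases acting just before and at that step. Kinesins and other microtubule proteins build the spindle, kinetochore proteins tie chromosomes to it, and the spindle checkpoint holds the cell in place until every chromosome is attached. The anaphase-promoting complex, with Cdc20 and Ube2c, then marks cyclin B and securin for destruction, sister chromatids separate and the cell divides. Most of these genes are transcribed in late S phase, G2 and mitosis and are low in resting cells, so that in a mixed culture their messenger RNA tracks how many cells are in those phases. Microglia are the resident macrophages of the brain, and LPS, an endotoxin of Gram-negative bacteria, is a standard stimulus of them.

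The 4 groups held 2 arrays each. Control cells had no addition, LPS cells received 1 µg/mL of LPS, HF cells received 100 µg/mL of HF, and LPS+HF cells received both at those doses, all for 24 h. BV-2 is an immortalised line that carries retroviral oncogenes and divides without pause in culture, so its control cells are not resting microglia. The controls are described as untreated, and a group given the solvent of the fraction was not analysed here. The replicates are described as biological duplicates, without a statement that they came from separate cultures, so p-values measure the spread between these arrays. In RNA from whole cultures, fewer cells in mitosis and less RNA of a gene per cell cannot be told apart.

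The 8 arrays shared 1 slide and 1 scan. The HF and LPS+HF arrays filled row 2 of the slide and the arrays with LPS filled columns 3 and 4, so position on the slide and treatment cannot be told apart. The 75th percentile of the signal, to which every array was scaled, was 247 to 286 without HF and 346 to 527 with it. Control replicate 1 stood apart. Its repeated spots varied by 48.9%, against 3.77% to 8.06% on the other arrays, its spot grid was rated as not good, and 16.4% of its spots lay in areas dimmed more than 4-fold. These areas held the probes of 9 of the 48 genes (Cdk1, Pttg1, Birc5, Bub1, Bub1b, Cenpa, Hmmr, Ckap2 and Racgap1), whose median difference between control replicate 1 and control replicate 2 was -2.51 on the log2 scale, beside 0.12 for the other 39. Comparisons with control are therefore given also with control replicate 2 alone and after a spatial correction that masks the dimmed spots. No spot of the LPS and LPS+HF arrays was masked. The median gap between replicates over the 48 genes was 0.52 in control, 0.061 in LPS, 0.20 in HF and 0.090 in LPS+HF.

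All levels below are log2 of the background-corrected signal minus the 75th percentile of the array. A difference of 1 on this scale is a doubling, and a level serves to compare one gene across arrays, not 1 gene with another. A gene passed when its limma adjusted p (Benjamini-Hochberg, over 22460 genes) was under 0.05, and only such genes are said to have risen or fallen. Of the 48 genes, 46 were above background on all 8 arrays, Bub1b and Ckap2 were not above it on control replicate 1, and none was saturated.

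Promoters are shown first because many genes of this class share short promoter elements. The cell cycle genes homology region (CHR), searched as TTTGAA or TTCGAA on both strands, is known as a contact of the DREAM and MuvB-containing complexes. The CCAAT box, searched as CCAAT on both strands, is known as the site of NF-Y. RefSeq promoters (GRCm38, 250 bases before to 50 after the transcription start) were held for 40 of the 48 genes, 42 promoters in all, and were not given for Ccna2, Cdc25c, Aurkb, Incenp, Spc24, Kif20a, Tpx2 and Dlgap5. The first 4 sequences below are those of the genes with the largest rises in LPS+HF over LPS among the genes with a RefSeq promoter, and the last is that of the gene with the smallest difference there. Capitals mark CHR and CCAAT matches on either strand, and each is written 5′ to 3′ on the strand of the gene.
Ccnb2: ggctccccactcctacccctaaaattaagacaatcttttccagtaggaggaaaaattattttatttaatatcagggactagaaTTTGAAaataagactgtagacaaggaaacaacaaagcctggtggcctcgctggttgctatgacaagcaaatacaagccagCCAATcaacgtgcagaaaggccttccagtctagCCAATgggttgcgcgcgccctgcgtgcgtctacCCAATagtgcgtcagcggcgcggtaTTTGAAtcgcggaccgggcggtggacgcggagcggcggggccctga
Cdc20: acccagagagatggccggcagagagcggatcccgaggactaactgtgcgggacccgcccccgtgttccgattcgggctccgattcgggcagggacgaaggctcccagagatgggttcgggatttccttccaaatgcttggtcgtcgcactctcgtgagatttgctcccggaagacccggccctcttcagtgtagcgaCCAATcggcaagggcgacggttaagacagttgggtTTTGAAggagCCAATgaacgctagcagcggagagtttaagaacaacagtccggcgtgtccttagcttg
Ube2c: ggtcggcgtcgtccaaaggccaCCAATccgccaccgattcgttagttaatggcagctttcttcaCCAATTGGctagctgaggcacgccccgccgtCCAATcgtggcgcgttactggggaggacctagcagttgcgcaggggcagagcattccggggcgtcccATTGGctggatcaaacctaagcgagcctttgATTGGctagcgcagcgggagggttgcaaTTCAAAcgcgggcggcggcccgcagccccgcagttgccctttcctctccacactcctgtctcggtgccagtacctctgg
Plk1: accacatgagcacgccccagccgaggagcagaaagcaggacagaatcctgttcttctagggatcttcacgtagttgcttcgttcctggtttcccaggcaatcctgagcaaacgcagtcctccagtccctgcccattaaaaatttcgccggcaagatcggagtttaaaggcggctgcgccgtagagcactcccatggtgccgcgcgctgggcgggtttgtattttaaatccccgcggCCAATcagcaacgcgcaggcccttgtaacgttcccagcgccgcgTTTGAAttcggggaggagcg
Cdc25b: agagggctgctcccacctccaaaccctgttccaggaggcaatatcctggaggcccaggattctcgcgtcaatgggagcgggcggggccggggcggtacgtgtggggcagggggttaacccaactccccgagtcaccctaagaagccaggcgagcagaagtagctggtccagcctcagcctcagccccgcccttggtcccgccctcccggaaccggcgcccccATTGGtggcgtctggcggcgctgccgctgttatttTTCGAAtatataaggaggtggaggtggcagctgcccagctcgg

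The Ccnb2 window, chr9:70421505-70421804 on the minus strand, held 3 CCAAT boxes that begin at -87, -54 and -21 from the start and a CHR match at 5, with a further CHR match at -167. In Cdc20 (chr4:118437294-118437593, minus strand) CCAAT boxes at -53 and -8 stood on either side of a CHR match at -18. The Ube2c window (chr2:164769679-164769978, plus strand) held 6 CCAAT matches, of which those at -186 and -183 overlap on opposite strands, and a CHR match on the opposite strand at -29. The Plk1 window (chr7:122159185-122159484, plus strand) held a CCAAT box at -14 and a CHR match at 31. Cdc25b (chr2:131186698-131186997, plus strand), whose transcript did not differ between LPS+HF and LPS arrays beyond their spread, held the same kinds of match, a CCAAT box on the opposite strand at -28 and TTCGAA at 8.

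Among the 42 promoters, 33 (78.6%) held a CHR match, beside 19.2% of all 32851 RefSeq promoters of the same length. A CCAAT box was found in 32 (76.2%, beside 37.4% of all), and both elements in 29 (69.0%, beside 7.52%). Pairs or larger groups of CCAAT boxes, 2 or more in the window, stood in 21 (50%, beside 11.7%). A CHR match was held by 11 of 14 promoters of genes that rose in LPS+HF over LPS (78.6%) and by 22 of 28 promoters of genes that did not pass (78.6%). A CCAAT box was held by 12 of the 14 (85.7%) and 20 of the 28 (71.4%), and both elements by 11 (78.6%) and 18 (64.3%). The difference between these shares was not tested. Letters in a window describe the sequence and show no binding.

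Most of the 48 genes were lowest in cells given LPS alone and higher wherever HF was present. Both LPS+HF arrays lay above both LPS arrays for 46 of the 48, where 32.7% of all genes did so, and below both for 1 (41.2%). All 4 arrays with HF lay above both LPS arrays for 45 of the 48, where 27% of all genes did. The exceptions to the first count were Pttg1, whose LPS+HF arrays were both below the LPS arrays, and Cdc25b, whose arrays overlapped.

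**Figure D1:**
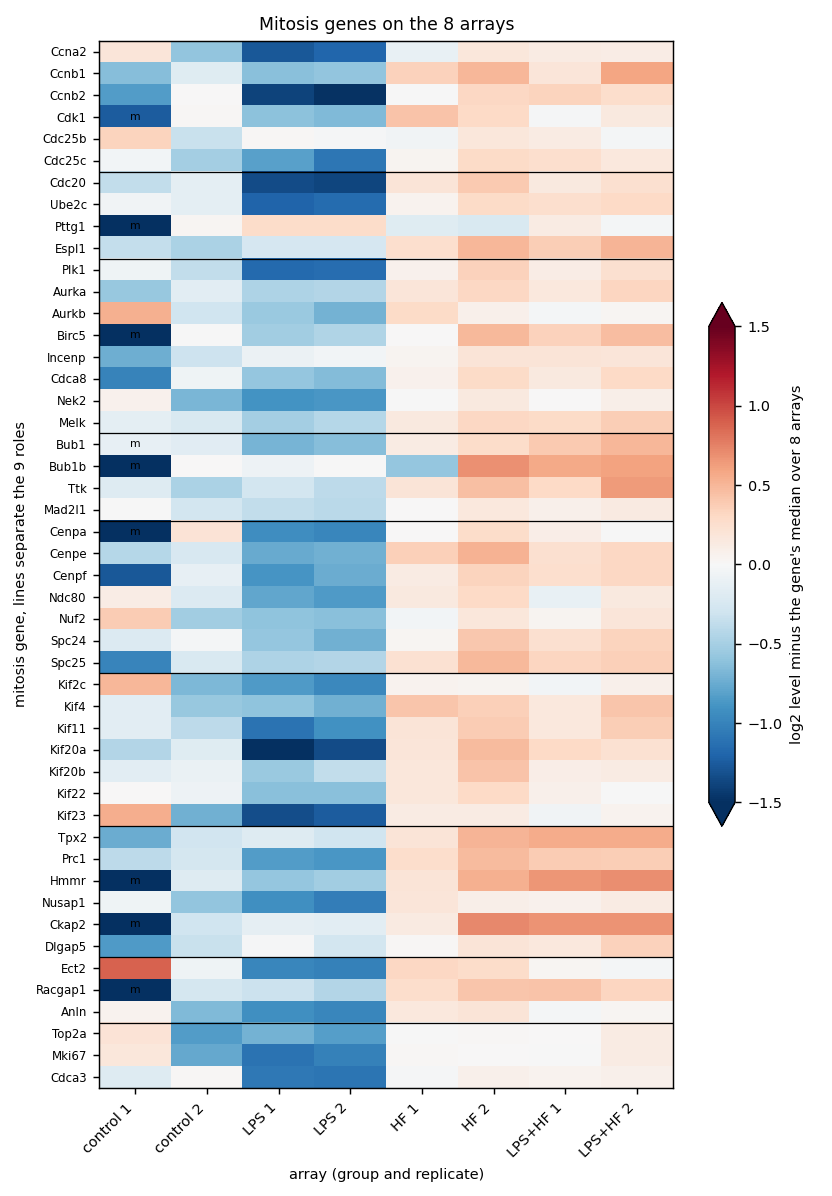
Level of each of the 48 mitosis genes (rows, ordered by role, with lines between the 9 roles) on each of the 8 arrays (columns), as the log2 level minus the median of that gene over the 8 arrays; colours are capped at 1.5 on either side and m marks the 9 probes in dimmed areas of control replicate 1. For most genes the 2 LPS columns are blue and the 4 columns with HF are red or pale, and the darkest cells of control replicate 1 are marked m.

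With HF added to LPS, 17 of the 48 genes rose and none fell, where 2.99% of all genes tested rose and 3.26% fell. The median difference over the 48 was 0.93, beside -0.07 over all genes tested, and 47 of the 48 values were above 0. Of the 48, 36 had an unadjusted p under 0.05 in limma, as did 5366 of all 22460 genes tested. The LPS+HF and LPS arrays themselves repeated closely, and the shared estimate of spread in this test also holds the control arrays. With control replicate 1 left out, 43 of 48 rose (15% of all genes tested), all 17 among them, and after the spatial correction 43 rose (12.7% of all), again with all 17. Left without 1 of the 4 arrays compared (LPS replicate 1 or 2, LPS+HF replicate 1 or 2), the test passed none of the 48 and the median stayed between 0.83 and 0.97. Nearly all calls over all genes tested were lost in these fits too. Without HF replicate 1 or HF replicate 2 the median was 0.93, and fewer of the 48 and fewer of all genes rose.

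**Figure D2:**
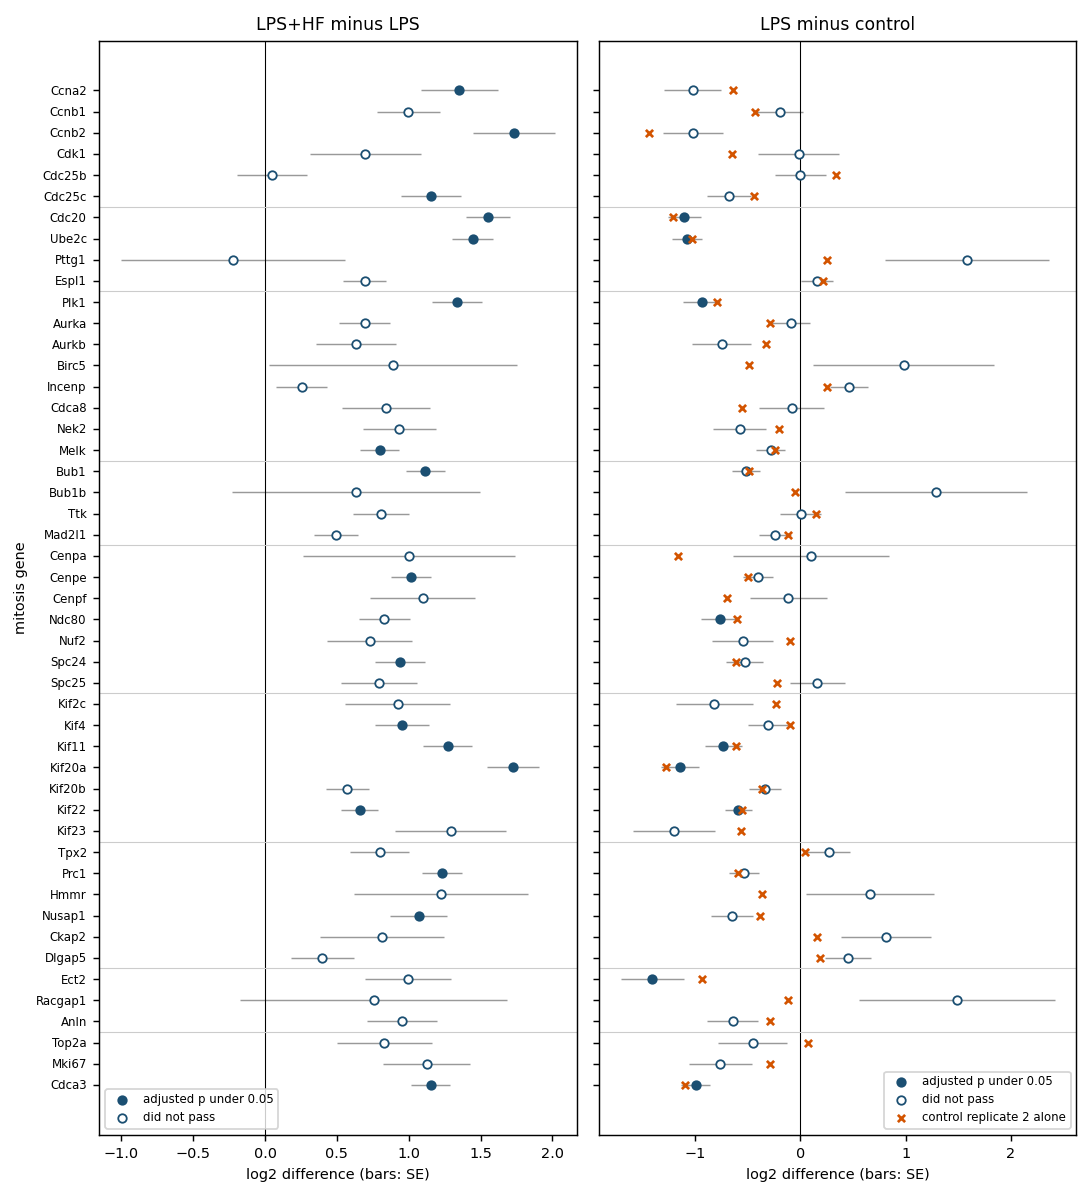
Log2 difference of each mitosis gene, LPS+HF minus LPS (left) and LPS minus control (right), with bars for 1 standard error from limma; filled points had an adjusted p under 0.05 and crosses on the right give the difference against control replicate 2 alone. On the left 47 of 48 points lie above 0 and 17 are filled, and on the right 9 are filled, all below 0, with the longest bars on genes whose control replicate 1 probe was dimmed.

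Among the cyclins and their kinase, 3 of 6 genes rose in LPS+HF over LPS, with a median difference of 1.08. Ccnb2, a B-type cyclin (probe A_51_P457528), stood at 4.07 and 4.91 on the control arrays, 3.51 and 3.43 on LPS, 4.90 and 5.21 on HF, and 5.24 and 5.17 on LPS+HF. The LPS arrays were the lowest and the 4 arrays with HF overlapped one another. The rise in LPS+HF over LPS was 3.33-fold (log2 1.73, standard error 0.29, limma adjusted p = 0.029). Ccna2, the cyclin of S phase and G2, gave 4.27 and 3.50 in control, 2.82 and 2.90 in LPS, 3.98 and 4.26 in HF and 4.22 and 4.20 in LPS+HF. Again only the LPS pair was low. It rose 2.55-fold (log2 1.35, standard error 0.27, limma adjusted p = 0.043). Cdc25c, a phosphatase that switches Cdk1 on at mitotic entry, rose 2.23-fold, from -1.04 and -1.31 on the LPS arrays to 0.02 and -0.06 on LPS+HF (limma adjusted p = 0.036), with control at -0.27 and -0.73. Ccnb1, the other B-type cyclin, went from 4.01 and 4.03 in LPS to 4.81 and 5.23 in LPS+HF, a log2 difference of 1.00 that missed the threshold (limma adjusted p = 0.055). Its replicate gap in LPS+HF, 0.41, was the widest of the 48 genes in that group.

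Cdk1 and Cdc25b were the 2 genes of this group that stood apart. For Cdk1, the kinase of mitotic entry, the probe gave 2.98 and 2.93 in LPS and 3.58 and 3.73 in LPS+HF, without overlap, at a log2 difference of 0.70 (limma adjusted p = 0.34, and 0.011 with control replicate 2 alone). Cdc25b, a phosphatase that acts on Cdk1 before Cdc25c, gave 4.19 and 3.52 in control, 3.87 and 3.84 in LPS, 3.80 and 4.02 in HF and 3.97 and 3.83 in LPS+HF. Its LPS+HF minus LPS difference, 0.05 with a standard error of 0.24, was the smallest of the 48, and all 4 groups overlapped.

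The partners of the anaphase-promoting complex gave some of the steepest differences. Cdc20, the activator that directs the complex at anaphase, was measured at 4.74 and 4.97 in control, 3.77 and 3.73 in LPS, 5.30 and 5.51 in HF, and 5.26 and 5.35 in LPS+HF. LPS arrays lay about 1 unit below control and further below the arrays with HF. Its rise in LPS+HF over LPS was 2.93-fold (log2 1.55, standard error 0.15, limma adjusted p = 0.011). Ube2c, the ubiquitin-conjugating enzyme of the complex, was at 4.73 and 4.63 in control, 3.58 and 3.63 in LPS, 4.83 and 5.07 in HF, and 5.03 and 5.07 in LPS+HF. It rose 2.72-fold (log2 1.44, standard error 0.14, limma adjusted p = 0.011), and its second probe on the array gave 1.42. Espl1, the separase that cuts cohesin between sister chromatids, gave 2.29 and 2.29 in LPS and 2.91 and 3.06 in LPS+HF, a log2 difference of 0.69 (limma adjusted p = 0.054). Pttg1, the securin that holds separase in check until anaphase, went the other way, at 5.08 and 5.09 in LPS against 4.94 and 4.79 in LPS+HF, a log2 difference of -0.22 (limma adjusted p = 0.90). A second Pttg1 probe gave 0.43, so the 2 probes differed in sign, and both lay in dimmed areas of control replicate 1.

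**Figure D3:**
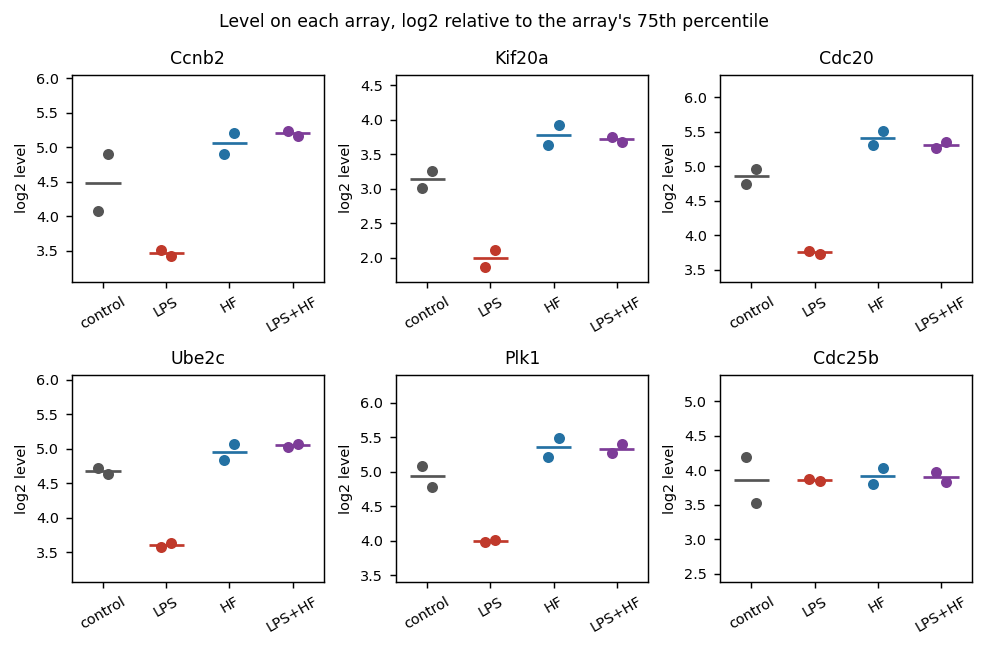
Log2 level on each array (points) for Ccnb2, Kif20a, Cdc20, Ube2c, Plk1 and Cdc25b in control, LPS, HF and LPS+HF, with a line at the mean of the 2 arrays of each group; every panel spans the same number of log2 units. In the first 5 panels both LPS points lie below every other point, and in the Cdc25b panel the 4 groups overlap.

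Among 8 mitotic kinases and members of the chromosomal passenger complex, Plk1 and Melk rose in LPS+HF over LPS and none fell. Plk1, the kinase that acts at centrosomes, kinetochores and the midbody, stood at 5.08 and 4.78 in control, 3.98 and 4.01 in LPS, 5.22 and 5.49 in HF and 5.27 and 5.40 in LPS+HF. LPS arrays were lowest by a clear margin. Its rise was 2.53-fold (log2 1.34, standard error 0.17, limma adjusted p = 0.017). Melk, a kinase abundant in dividing cells, moved in a narrower range, from 1.02 and 1.10 in LPS to 1.82 and 1.90 in LPS+HF, a 1.74-fold rise (limma adjusted p = 0.033). Nek2, a centrosomal kinase, gave 0.94 (limma adjusted p = 0.087), and Aurka, the spindle-pole Aurora kinase, 0.69 (limma adjusted p = 0.080).

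The passenger complex, which corrects faulty attachments and then moves to the midzone, was less even. Its kinase Aurkb gave a log2 difference of 0.63, its targeting subunits Cdca8 and Birc5 gave 0.84 and 0.89, and its scaffold Incenp gave 0.25. None of these passed in LPS+HF over LPS on all 8 arrays. With control replicate 2 alone, Aurkb, Cdca8 and Birc5 passed (limma adjusted p = 0.017, 0.0099 and 0.022), while Incenp did not (0.098). Incenp had the highest of its levels in the 4 arrays with HF, 6.06 to 6.21, but its LPS arrays, 5.93 and 5.98, were above control at 5.28 and 5.70.

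In the spindle checkpoint, 1 of 4 genes rose. Bub1, a kinase that gathers checkpoint proteins at kinetochores, gave 3.26 and 3.20 in control, 2.68 and 2.74 in LPS, 3.50 and 3.65 in HF and 3.77 and 3.88 in LPS+HF, a 2.17-fold rise over LPS (log2 1.11, limma adjusted p = 0.015). Of the 9 genes with a dimmed probe it was the one whose 2 control arrays lay close together. Ttk, the kinase known as Mps1, gave 0.81 (limma adjusted p = 0.069). Bub1b, which encodes the checkpoint protein BubR1, gave 0.63, with HF arrays 1.26 apart, the widest gap of the 48 genes in that group. Mad2l1, which encodes Mad2, the protein that blocks Cdc20, gave 0.49 on the probe chosen by the rule (limma adjusted p = 0.12), whereas its other 2 probes gave 1.07 and 1.13 and both passed when each probe was fitted on its own (adjusted p = 0.037 and 0.024).

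Of 7 centromere and kinetochore genes, Cenpe and Spc24 rose, and the values of all 7 lay between 0.73 and 1.10. Cenpe, a kinetochore motor, stood at 4.13 and 4.31 in control, 3.80 and 3.84 in LPS, 4.92 and 5.08 in HF, and 4.80 and 4.87 in LPS+HF, and rose 2.02-fold over LPS (log2 1.02, limma adjusted p = 0.020). Spc24, a subunit of the Ndc80 complex that grips microtubules, gave 1.09 and 1.26 in control, 0.71 and 0.58 in LPS, 1.33 and 1.70 in HF, and 1.54 and 1.63 in LPS+HF, a 1.92-fold rise (log2 0.94, limma adjusted p = 0.038). The other 3 subunits of that complex had values of the same size. Ndc80 itself gave 0.83 (limma adjusted p = 0.051), Spc25 0.79 and Nuf2 0.73. Cenpa, the histone variant that marks centromeres, gave 1.00 and Cenpf, a large kinetochore protein, 1.10. Both missed the threshold on all 8 arrays (limma adjusted p = 0.48 and 0.14) and passed with control replicate 2 alone (0.0075 and 0.0057).

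Kinesins gave 4 rises among 7 genes, with values from 0.57 to 1.73. Kif20a, a motor of the central spindle needed for cytokinesis, stood at 3.01 and 3.26 in control, 1.87 and 2.11 in LPS, 3.63 and 3.92 in HF, and 3.75 and 3.68 in LPS+HF. The LPS pair lay about 1 unit below control, and the pairs with HF overlapped each other. Its rise over LPS was 3.31-fold (log2 1.73, standard error 0.18, limma adjusted p = 0.011). Kif11, the motor that pushes spindle poles apart, was at 0.87 and 0.63 in control, -0.08 and 0.12 in LPS, 1.22 and 1.41 in HF and 1.19 and 1.40 in LPS+HF, and rose 2.41-fold (log2 1.27, standard error 0.17, limma adjusted p = 0.019). Kif4, a chromosome-bound motor, rose 1.94-fold (limma adjusted p = 0.043) and Kif22, another chromosome arm motor, 1.58-fold (limma adjusted p = 0.043). Kif23, the kinesin of the centralspindlin complex, gave 1.29 with a standard error of 0.39 (limma adjusted p = 0.11). Its LPS arrays were at 0.40 and 0.49 and its LPS+HF arrays at 1.69 and 1.79, while the 2 control arrays, which enter the shared spread, were at 2.28 and 1.01. Kif2c, which shortens microtubules at centromeres, gave 0.92, and Kif20b 0.57. A second Kif2c probe gave 0.91 and passed when each probe was fitted on its own (limma adjusted p = 0.032).

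Among 6 spindle and midzone proteins, Prc1 and Nusap1 rose. Prc1, which bundles the microtubules of the midzone, gave 3.86 and 3.99 in control, 3.41 and 3.38 in LPS, 4.52 and 4.73 in HF, and 4.63 and 4.62 in LPS+HF, a rise of 2.35-fold over LPS (log2 1.23, standard error 0.14, limma adjusted p = 0.013). Nusap1, which ties spindle microtubules to chromatin, was at 3.07 and 2.54 in control, 2.22 and 2.10 in LPS, 3.32 and 3.22 in HF and 3.20 and 3.26 in LPS+HF, and rose 2.10-fold (log2 1.07, limma adjusted p = 0.038). In both genes the LPS arrays were the lowest of the 8. Tpx2, an activator of Aurka, gave 0.80 (limma adjusted p = 0.078), Hmmr 1.22 (0.29), Ckap2 0.81 (0.32) and Dlgap5 0.40 (0.34).

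No cytokinesis gene passed on all 8 arrays, though the values of the 3 were close together, from 0.75 to 1.00. Ect2, which activates RhoA at the cleavage plane, stood at 3.01 and 2.07 in control, 1.15 and 1.12 in LPS, 2.44 and 2.40 in HF and 2.16 and 2.11 in LPS+HF. Anln, a scaffold of the contractile ring, gave 4.12 and 3.40 in control, 3.15 and 3.09 in LPS, 4.23 and 4.27 in HF and 4.04 and 4.10 in LPS+HF. Each pair with HF lay near 1 unit above the LPS pair, and the 2 control arrays differed from each other by about as much. The LPS+HF minus LPS differences were 1.00 for Ect2 (limma adjusted p = 0.11), 0.95 for Anln (0.076) and 0.75 for Racgap1, the partner of Kif23 in centralspindlin (0.69). With control replicate 2 alone they passed, at adjusted p = 0.0044, 0.0047 and 0.0095.

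Cdca3, an adaptor for the destruction of mitotic inhibitors, rose among the 3 remaining genes. It was at 4.85 and 5.06 in control, 3.97 and 3.95 in LPS, 5.03 and 5.12 in HF and 5.10 and 5.13 in LPS+HF, a 2.22-fold rise over LPS (log2 1.15, standard error 0.14, limma adjusted p = 0.015). Mki67, the proliferation marker Ki-67, was at 5.99 and 5.05 in control, 4.71 and 4.81 in LPS, 5.84 and 5.82 in HF, and 5.82 and 5.95 in LPS+HF. Its LPS+HF arrays lay above its LPS arrays by 1.12, which missed the threshold (limma adjusted p = 0.085). A second Mki67 probe gave 1.02 and passed when each probe was fitted on its own (limma adjusted p = 0.021). Top2a, the topoisomerase that untangles sister chromatids, gave 0.83 (limma adjusted p = 0.20).

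The 5 genes that passed neither on all 8 arrays nor with control replicate 2 alone in this comparison were Cdc25b, Pttg1, Incenp, Bub1b and Dlgap5. In each of them at least 1 control array lay below both LPS arrays. This does not set them apart, and a count over all genes was not taken. It also held for Racgap1, Birc5, Cenpa and Cdca8, which passed with control replicate 2 alone. For Bub1b only the dimmed control replicate 1 lay below the LPS arrays. For Dlgap5, a microtubule protein of kinetochore fibres, LPS arrays at 0.78 and 0.53 lay above both control arrays, at -0.05 and 0.47. A second Dlgap5 probe went the other way in LPS over control, with a log2 difference of -0.46.

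Some of the group was lower with LPS alone than in untreated cells. In LPS over control, 9 of the 48 genes fell and none rose, where 6.34% of all genes tested fell and 4.8% rose. The median difference was -0.43, beside -0.08 over all genes, and 35 of 48 values were below 0. The share of the 48 that fell, read against that background, was higher than over all genes, but the count moved with the control arrays. It was 16 with control replicate 2 alone (11.5% of all genes fell) and 20 after the spatial correction (14.5%). Without control replicate 2, with the dimmed array as the lone control, 25 fell and 12 rose (30.7% and 21.9% of all genes). Left without LPS replicate 1 or LPS replicate 2, none of the 48 passed, and most calls over all genes tested were lost too. Fewer of the 48 and fewer of all genes fell whenever 1 of the HF or LPS+HF arrays was left out. Both LPS arrays lay below control replicate 2 for 39 of the 48, where 48.5% of all genes did so, and below both control arrays for 28 (33.1%).

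Of the 9 genes that fell, 7 also fell with control replicate 2 alone, and all 9 after the spatial correction. Kif20a fell 2.21-fold (log2 -1.15, standard error 0.18, limma adjusted p = 0.016), with -1.27 against control replicate 2 alone. Cdc20 fell 2.15-fold (log2 -1.10, limma adjusted p = 0.012) and Ube2c 2.11-fold (log2 -1.07, limma adjusted p = 0.010), with -1.21 and -1.03 against control replicate 2 alone. These are the motor and the pair of anaphase factors whose levels on each array are given above. Cdca3 fell 1.99-fold (log2 -0.99, limma adjusted p = 0.012) and Plk1 1.92-fold (log2 -0.94, limma adjusted p = 0.025). Kif22 fell 1.50-fold (log2 -0.59, limma adjusted p = 0.042). Ect2 had the largest fall, 2.65-fold (log2 -1.41, limma adjusted p = 0.037), and the difference against control replicate 2 alone was -0.93 (adjusted p = 0.0072). Ndc80 and Kif11 fell by 0.77 and 0.73 (limma adjusted p = 0.046 and 0.048), and with control replicate 2 alone neither passed (0.050 and 0.059).

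Of the 13 genes with positive values in LPS over control, 7 had a dimmed control probe and 6 did not. Among the 9 genes with such a probe, 7 values were above 0 and the median was 0.81, while among the other 39 genes 33 values were below 0, the median was -0.55 and 9 fell. Racgap1 gave 1.48 on all 8 arrays and -0.12 against control replicate 2 alone, where its level was 3.54 beside 0.34 on control replicate 1 and 3.47 and 3.37 on the LPS arrays. Birc5, the survivin of the passenger complex, gave 0.98 and -0.48 in the same way. Cenpa went from 0.10 to -1.16 and then passed (adjusted p = 0.010). The 6 without a dimmed probe were Espl1, Incenp, Dlgap5, Tpx2, Spc25 and Ttk, with values up to 0.46 on all 8 arrays, and none of them passed. Against control replicate 2 alone Spc25 was at -0.22 and the other 5 stayed above 0, up to 0.25. These values are of the chosen probes. On all 8 arrays a second probe, not dimmed either, gave -0.46 for Dlgap5 and -0.20 for Tpx2, beside 0.45 and 0.27 on the chosen ones. The second Incenp probe gave 0.21, of the same sign as the chosen one.

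HF alone gave values above 0 for 47 of the 48 genes over control, with a median of 0.56 beside -0.07 over all genes tested. None passed in limma on all 8 arrays, where 0.142% of all genes rose and 0.739% fell. An unadjusted p under 0.05 was found for 21 of the 48 and for 4425 of all 22460 genes. With control replicate 2 alone 4 rose (0.632% of all genes), after the spatial correction 15 rose (3.34%), and without control replicate 2, with the dimmed array as the lone control, 23 rose and 3 fell (18.6% and 26.7% of all genes). The 4 with the smallest p on all 8 arrays were Cenpe at 0.78 (limma adjusted p = 0.084), Espl1 at 0.79 (0.093), Prc1 at 0.70 (0.10) and Tpx2 at 0.87 (0.13). Those that rose with control replicate 2 alone were Kif23 at 0.85, Anln at 0.85, Top2a at 0.84 and Mki67 at 0.78, with adjusted p between 0.036 and 0.048. Control replicate 1 read these 4 genes higher than control replicate 2, and on all 8 arrays their differences were 0.22, 0.49, 0.32 and 0.31. Both HF arrays lay above control replicate 2 for 43 of the 48, where 37.7% of all genes did so, and above both control arrays for 33 (20.5%).

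Cells given both agents were also above untreated cells in most of the 48. In LPS+HF over control 2 genes rose and none fell, where 1.92% of all genes rose and 3.17% fell, and the median was 0.56 beside -0.13 over all genes. Tpx2 rose 2.10-fold, from 2.59 and 3.05 on the control arrays to 3.89 and 3.89 on LPS+HF (log2 1.07, limma adjusted p = 0.045). Espl1 rose 1.81-fold, from 2.19 and 2.07 to 2.91 and 3.06 (log2 0.85, limma adjusted p = 0.039). With control replicate 2 alone both still passed, at 0.84 and 0.91, among 20 genes that rose (5.8% of all genes), and 25 rose after the spatial correction (8.84%). Without control replicate 2, 25 rose and 4 fell (19.8% and 30.7% of all genes), and leaving out any 1 of the 6 arrays that are not controls left none. Most rises over all genes tested were lost in those fits too. Both LPS+HF arrays lay above control replicate 2 for 45 of the 48, where 35.2% of all genes did.

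LPS+HF and HF cells gave close values for these genes. None of the 48 passed in LPS+HF over HF in limma, where 0.904% of all genes rose and 0.374% fell, none had an unadjusted p under 0.05, and none passed with control replicate 2 alone (2.45% of all genes rose and 1.5% fell) or after the spatial correction (2.53% and 1.43%). The values ran from -0.30 to 0.54 with a median of 0.03, beside -0.08 over all genes, with 26 above 0 and 22 below. This split rested on single arrays. Without HF replicate 1, which the scanner report had marked for evaluation, 10 values were above 0 and 38 below, and without HF replicate 2 the counts were 36 and 12. For 36 of the 48 the LPS+HF and HF arrays overlapped, for 4 both LPS+HF arrays were higher (18.2% of all genes) and for 8 both were lower (35.2%). Bub1 had the smallest p, with a difference of 0.25 and a standard error of 0.14 (limma adjusted p = 0.72), and the next were Kif22 at -0.19 and Kif20b at -0.19 (adjusted p = 0.81 and 0.87). A missed threshold with 2 arrays a group does not show that the groups were alike.

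The difference between the 2 LPS effects was tested as the interaction, (LPS+HF minus HF) minus (LPS minus control). Its values were above 0 for 34 of the 48 with a median of 0.39, beside 0.02 over all genes. No member passed in limma on all 8 arrays, where 0.0134% of all genes passed with a positive value and 0.0401% with a negative one. An unadjusted p under 0.05 was found for 11 of the 48 and for 2595 of all 22460 genes. The 4 with the smallest p were Ube2c at 1.17 (limma adjusted p = 0.17), Cdca3 at 1.03 (0.18), Cdc20 at 1.00 (0.21) and Kif20a at 1.08 (0.23). With control replicate 2 alone the 48 gave no call, with 43 values above 0 and a median of 0.35. After the spatial correction 4 passed with positive values (0.873% of all genes did so). Without control replicate 2, 21 passed with a positive value and 8 with a negative one (20.4% and 15% of all genes). All of these comparisons share arrays, the LPS pair in particular, so their values are given side by side and are no independent support of one another.

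Other probes of the same genes gave a second reading. For 13 of the 48 genes 2 or more probes were kept, 30 in all with the chosen ones. In LPS+HF over LPS 7 of the 30 passed, both Ube2c probes among them, and no share over all kept probes was taken to set beside this count. Of the 30, 28 had values above 0, and the probes of a gene had 1 sign in 11 of the 13. Cdk1 and Pttg1 were the exceptions. The 3 Cdk1 probes gave 0.70, 0.41 and -0.18. The 3 Birc5 probes, of which only the chosen one was dimmed on control replicate 1, gave 0.89, 0.93 and 0.84, and the second of these passed (limma adjusted p = 0.027). In LPS over control the same 3 probes gave 0.98, -0.56 and -1.08, with the positive value on the dimmed probe, and probes had 1 sign in 7 of the 13 genes.

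Other cell cycle genes were read from 7 lists of 168 genes, none of them among the 48, of which 165 were tested. In LPS+HF over LPS 20 of the 165 rose and none fell, where 2.99% of all genes rose and 3.26% fell, and the median was 0.45. Most of the rises were in the 2 lists nearest to the 48 by function. Of 44 further kinetochore, spindle and cytokinesis genes 11 rose, with a median of 0.65. Fam83d, a spindle protein, rose 3.65-fold (log2 1.87, limma adjusted p = 0.0093), Kif15, a spindle kinesin, 3.02-fold (1.60, 0.024), Aspm, a protein of spindle poles, 2.34-fold (1.23, 0.012), and Cenpt, a kinetochore protein, 2.33-fold (1.22, 0.013). Condensin and cohesin, which fold and hold chromosomes, gave 5 rises among 17 genes, also with a median of 0.65. Ncapd2 rose 2.48-fold, Ncaph2 1.85-fold, Ncaph 1.81-fold and Ncapd3 1.81-fold, each a condensin subunit (limma adjusted p = 0.016 to 0.049). After the spatial correction 29 of the 44 and 12 of the 17 rose, where 12.7% of all genes did.

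**Figure D4:**
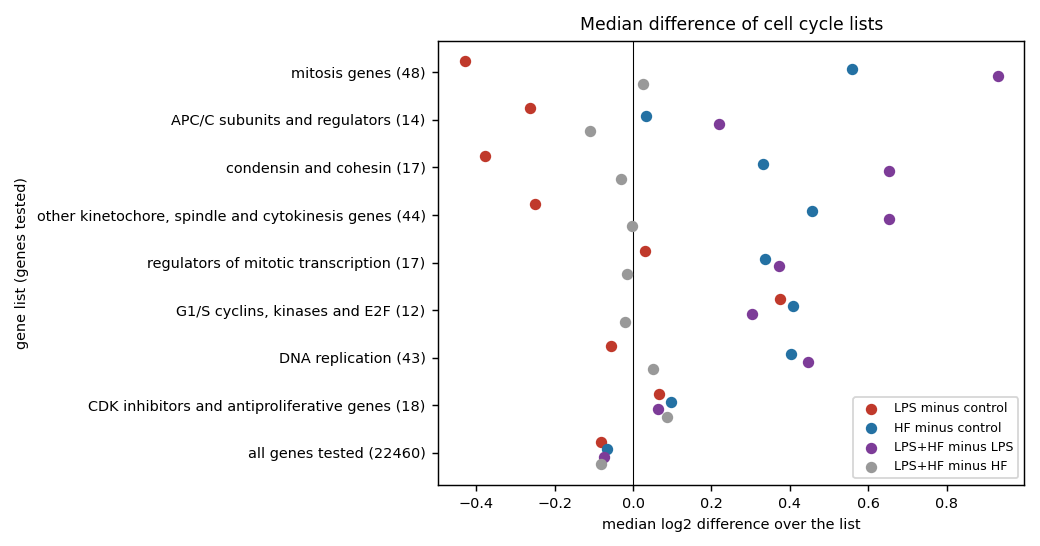
Median log2 difference (horizontal axis) over the mitosis genes, over 7 other cell cycle lists and over all genes tested (vertical axis, genes tested in brackets), for 4 comparisons (colours). For LPS+HF minus LPS the mitosis genes lie farthest to the right, at 0.93, the condensin and spindle lists follow at 0.65, and all genes lie at -0.07; the medians carry no test.

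Lists of earlier cell cycle stages and of the core of the anaphase-promoting complex moved less. Among 43 DNA replication genes 1 rose, where 2.99% of all genes did, with a list median of 0.45. It was Rrm2, the regulated subunit of ribonucleotide reductase (1.68-fold, limma adjusted p = 0.043). After the spatial correction 19 of the 43 rose, where 12.7% of all genes did. Of 12 G1/S cyclins, kinases and E2F genes none passed in limma, with a median of 0.30. Cdk2 at 0.95 (limma adjusted p = 0.055) and Ccnd2 at 0.54 (0.16) had the smallest p. The 14 subunits and regulators of the complex gave none that passed, with a median of 0.22, although its partners Cdc20 and Ube2c rose. The smallest p were those of Anapc5 at 0.63 (limma adjusted p = 0.053) and Anapc13 at 0.75 (0.089). After the spatial correction 4 of the 12 and 4 of the 14 rose (12.7% of all genes), and 1 of the 12 fell (2693 of all 22460 genes). Among 17 regulators of mitotic transcription 2 rose, E2f8 1.91-fold and Tfdp1 1.64-fold (limma adjusted p = 0.041 and 0.045). No test compared these lists with one another or with the 48.

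The other comparisons gave calls in several of these lists. In LPS over control 7 of the 44 spindle and kinetochore genes fell and 1 rose, and 2 of 17 condensin and cohesin genes fell. Of all genes tested 6.34% fell and 4.8% rose in that comparison. Fam83d fell 2.58-fold, Cenpp, a kinetochore protein, 2.38-fold, Cenpt 2.16-fold and Ska2, which helps kinetochores hold microtubule ends, 2.08-fold (limma adjusted p = 0.0061 to 0.037), while Nsl1, another kinetochore protein, rose 1.74-fold (limma adjusted p = 0.038). Against control replicate 2 alone the log2 differences were -1.49, -1.17, -1.15, -0.74 and 0.62, in that order. HF over control gave no call in either list, and the smallest p were those of Aspm at 0.88 (limma adjusted p = 0.056) and Fam83d at 0.94 (0.077). Foxm1, a transcription factor of late cell cycle genes, stood at 0.59 in that comparison (limma adjusted p = 0.12). In the list of the anaphase-promoting complex Anapc5 fell 1.57-fold in LPS over control (log2 -0.65, limma adjusted p = 0.035). It gave -0.67 against control replicate 2 alone, and -0.51 after the spatial correction, where it did not pass (limma adjusted p = 0.060). LPS+HF over control gave 12 rises and 2 falls among the 165, where 1.92% of all genes rose and 3.17% fell. Of these rises 3 were among the 43 DNA replication genes (Cdc6, Pole and Rrm2). LPS+HF over HF gave 2 rises and no fall among the 165, where 0.904% of all genes rose and 0.374% fell. Oip5 and Spag5, both of kinetochores and spindles, rose in LPS+HF over control by log2 differences of 1.05 and 1.00 (limma adjusted p = 0.024 and 0.040).

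Of 18 cyclin-dependent kinase inhibitors and antiproliferative genes 1 rose in LPS+HF over LPS, where 2.99% of all genes rose, and the list median was 0.06. That gene was Btg2, an early-response gene named for its antiproliferative action, at 6.89-fold (log2 2.78, standard error 0.19, limma adjusted p = 0.0080). Btg2 also rose in HF over control, 2.60-fold (limma adjusted p = 0.047), where 0.142% of all genes rose. Its log2 difference there was 1.38, beside 1.35 against control replicate 2 alone and 1.26 after the spatial correction. With only the arrays compared it did not pass (limma adjusted p = 0.36). In LPS+HF over control Btg2 rose 8.14-fold and Gadd45a 5.65-fold, while Cdkn1a fell 2.12-fold and Tob1 1.81-fold (limma adjusted p = 0.0021 to 0.044). In LPS over control 2 of the 18 rose and 4 fell, where 4.8% of all genes rose and 6.34% fell. Gadd45a, a stress gene that restrains Cdk1, rose 12.3-fold (log2 3.62, limma adjusted p = 0.0020), and Gadd45g, its relative, 9.76-fold (limma adjusted p = 0.044). Against control replicate 2 alone the log2 differences were 3.34 for Gadd45a and 2.04 for Gadd45g. Cdkn1c, an inhibitor of G1 kinases, fell 3.21-fold, Ccng2, an atypical cyclin of arrested cells, 3.12-fold, Tob1, an antiproliferative relative of Btg2, 2.04-fold, and Cdkn1a, the inhibitor p21, 1.80-fold (limma adjusted p = 0.016 to 0.039).

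Markers of the labelled cell type were present. Of 10 markers of microglia and macrophages 9 were above background on all 8 arrays and Cx3cr1 on fewer. Their summed level, relative to the 75th percentile, was 831 to 855 in control, 738 to 750 in LPS, 636 to 639 in HF and 642 to 712 in LPS+HF. This sum was lower in the groups with HF, in which the mitosis genes were high, but few single markers passed. Of the 10, 1 rose and 1 fell in LPS over control (4.8% and 6.34% of all genes). In HF over control 2 fell (0.739%) and none rose (0.142%). In LPS+HF over LPS 1 rose and 1 fell (2.99% and 3.26%). Of 30 markers of astrocytes, neurons, oligodendrocytes, fibroblasts, endothelium and lymphocytes, 15 were above background on all arrays and 7 on none (Gja1, Slc1a2, Stmn2, Syt1, Col1a1, Pdgfra and Tek). The summed oligodendrocyte list was at 50.8 to 66.9 in control, 37.5 to 41.1 in LPS, 33.7 to 60.5 in HF and 22.4 on both LPS+HF arrays, and none of its 5 markers passed in LPS over control, HF over control or LPS+HF over LPS. The endothelium list was at 3.04 to 3.54, 1.999 to 2.11, 1.19 to 1.33 and 0.907 to 1.16 in the same order of groups, and 1 of its 3 tested markers fell in LPS+HF over LPS. The part of these levels in the differences of the mitosis genes was not tested.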

How the data were processed

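The intensity of each spot came from Agilent Feature Extraction 11.5.1.1 (probe grid on build mm9) with background subtracted and spatial trend corrected, per the file headers. The deposited matrix holds log2 values that the authors scaled to the 75th percentile and centred per probe, as a recomputation showed (correlation 0.945 to 1.000 per array). Here, processed signals were averaged over repeated spots, converted to log2 and shifted to the 75th percentile of each array. Of 55681 probes, 28026 (50.3%) were named for 21154 genes by matching transcript identifiers to RefSeq. Probes above background on both arrays of a group were kept (30344), and for each gene the brightest by mean, which gave 22460 genes. Of these, 13802 had a symbol. The others kept the identifier given on the array and count as genes in every share and median over all genes. Group means over all 8 arrays were fitted with limma 3.58.1 in R 4.3.3 (4 residual and 2.04 prior degrees of freedom), two-sided, with Benjamini-Hochberg adjustment over all genes. The number of arrays limits the precision.

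The spatial correction subtracted local deviations over 30 by 15 spots (rows by columns) and masked spots dimmed more than 4-fold. Normexp (offset 50) used median brightness, since mean brightness was not in the scanner files. The 22 alternatives cover scaling, background, filters, probe choice, variance, array quality, a replicate block and each array left out; a lone array was assumed to vary like the others. Same-numbered arrays deviated together with correlations from -0.087 to 0.27, and the numbers were not taken to pair them.

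Genes named are the 48 members; per comparison full statistics go to up to 10 passed members with the largest difference, or 4 with the smallest p where none passed, and up to 4 passed genes, or 2, from each other list. The members and lists were chosen with earlier results of these data known. The fit was tested on simulated data. Python 3.11.15, numpy 2.4.6, pandas 2.3.3 and matplotlib 3.10.9 were used. RefSeq promoters are from GRCm38, and no coordinates were carried between builds.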

Additional observations from a re-analysis of the deposited data

Results flagged for a closer look

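After the spatial correction, 4 mitosis genes differed in their response to LPS with and without HF, by the limma interaction term: Ccnb2 by 1.48 on the log2 scale (adjusted p = 0.025), Kif20a by 1.29 (0.043), Cdca3 by 1.07 (0.025) and Cdc20 by 1.06 (0.040). Each value is positive, which means a less negative or more positive LPS difference in the presence of HF. Without the correction the same differences were 1.17, 1.08, 1.03 and 1.00, and none passed (adjusted p = 0.37, 0.23, 0.18 and 0.21). With control replicate 2 alone none of them passed either. The correction was added after the data were seen in earlier work on these arrays.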

How the results depend on the processing

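Of single mitosis genes, 32 differences were followed through the 22 alternatives, those that passed and the 4 with the smallest p in HF over control. These 32 kept their direction, and calls were often lost. Others did not: Racgap1, Birc5 and Cenpa turned in LPS over control without control replicate 1 (-0.12, -0.48 and -1.16), and with the mean over the probes of a gene all 48 values in LPS+HF over LPS, Pttg1 included, were above 0. The count of genes that passed in LPS+HF over LPS (17) was 6 with normexp, 2 with median scaling over all probes, 3 without a filter on dim probes, 10 with the replicate block, 42 with array weights, 43 after the spatial correction, 44 without both arrays marked by the scanner report and 44 with only the arrays compared. Its median (0.93) was 0.78 with normexp and 1.08 with median scaling. In LPS over control (9) the counts were, in that order of settings, 5, 1, 2, 5, 0, 20, 19 and 0. In LPS+HF over control (2) they were 1, 0, 0, 0, 0, 25, 24 and 0, with 5 for probes above background on all arrays and 5 with a trended and robust variance, and the median under median scaling was 1.06. In HF over control 15 passed after the spatial correction, and in the interaction 4. Leaving out 1 array at a time gave counts of 0 to 43 in LPS+HF over LPS, 0 to 37 in LPS over control, 0 to 26 in HF over control, 0 to 29 in LPS+HF over control, 0 to 0 in LPS+HF over HF and 0 to 29 in the interaction. The medians then ran from 0.83 to 0.97, -0.46 to -0.38, 0.47 to 0.66, 0.52 to 0.60, -0.07 to 0.10 and 0.31 to 0.46. Median scaling moved the median of all genes to 0.27 in LPS over control, 0.32 in HF over control and 0.36 in LPS+HF over control; relative to all genes the mitosis genes stayed at -0.35, 0.63 and 0.70. Calls over all genes tested moved with the setting too, and also when 1 array was left out. Of all 22460 genes, 672 rose in LPS+HF over LPS in the main fit, 74 with normexp and 89 with median scaling. The number was 237 with the replicate block, 3993 with array weights, 2857 after the spatial correction and 3567 with only the arrays compared. In LPS over control 1424 fell in the main fit, and 643, 262, 936, 46, 3249 and 7 in those settings. In LPS+HF over control 431 rose in the main fit, and 105, 212, 192, 31, 1986 and 0 in the same settings. There 573 of 18492 rose for probes above background on all arrays, and 568 of 22460 with a trended and robust variance. Causes of these shifts were not tested.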
